A study of Mus musculus with 60 samples.

Results

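A group of 10 genes that are transcribed in response to ERK signalling and that feed back on it was followed through nascent RNA libraries of mouse cells depleted of RAD21 or CTCF. They were Spry1, Spry2 and Spry4 (Sprouty proteins), Spred1 and Spred2 (Sprouty-related proteins with an EVH1 domain), Dusp4, Dusp5 and Dusp6 (dual-specificity phosphatases), and Etv4 and Etv5 (ETS transcription factors of the PEA3 group). The 10 were chosen by gene name with earlier results of these data known, in particular the large differences of some of them after RAD21 loss, and between controls, in an experiment with 24 additional RAD21-AID mESC libraries. Values that rest on those 24 libraries are therefore given as descriptions, with no test. The controls of the initial RAD21-AID mESC experiment, described below, were the other side of that difference between controls. Tests that use these initial controls are therefore not wholly independent of the choice of genes. The count table holds 27665 transcripts, 1 per gene, and each of the 10 genes had 1 row in it.

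EU-seq reads out nascent transcription: RNA made during a brief exposure of the cells to an ethynyl-modified uridine is pulled down and sequenced. In all, 60 such libraries were analysed. All mESC lines derive from E14 mouse embryonic stem cells and were kept with LIF, the GSK3 inhibitor CT-99021 and PD0325901, an inhibitor of the ERK kinase MEK, whereas the NPCs (neuronal progenitor cells made from the RAD21-AID mESCs) were, by the methods, kept with FGF2 and EGF, although their labels repeat the mESC medium. In GFP-AID-Rad21 cells (RAD21-AID) RAD21 carries an auxin-inducible degron and a GFP tag, RAD21 being a subunit of the cohesin ring. Their mESC libraries comprised 2 controls and 2 treated with 500 µM IAA for 4 h (initial experiment), and 12 controls and 12 treated with 500 µM IAA for 4 h (additional experiment). Their NPC libraries comprised 2 controls, 2 for each of 3 lengths of IAA treatment (1 h, 2 h and 4 h, 500 µM), and 2 given 10 µM A-485 for 1 h. A-485 blocks the acetyltransferase activity of CBP and p300. GFP-AID-Ctcf mESCs (CTCF-AID) gave 4 controls and 4 libraries after 6 h of 500 µM IAA, with 2 of each stranded. GFP-FKBP12F36V-Ctcf (Y226A/F228A) mESCs (YF-AA), whose CTCF carries 2 substitutions at the site that contacts cohesin, were sampled as 2 controls and, with dTAG13 for 2 h and for 4 h, as 2 libraries a time, at 200 nM by the labels and at another dose in the study's own list. In bTAG-delN-CTCF/dTAG-CTCF-delC mESCs (ΔN/ΔC), 1 Ctcf allele makes a protein that lacks the N-terminal part and can be degraded with AGB1, and the other makes one that lacks the C-terminal part and can be degraded with dTAG13. Of this line there were 2 controls and, all at 2 h, 2 libraries with AGB1 (100 nM), 2 with dTAG13 (100 nM) and 2 with both, the titles and the column names giving different doses of dTAG13. By the methods, the YF-AA and the ΔN/ΔC cells were grown from single picked colonies, so each line is taken to stand for 1 clone. The NPCs come from the RAD21-AID line alone. The labels do not say that replicates are separate cultures. For stranded and unstranded EU-seq after CTCF depletion, the study's reporting summary states 2 biological replicates. The p-values measure the spread between these samples, which may be technical where no more is stated.

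Levels are given as CPM, the reads of a gene scaled to the same total of counted reads in each library, and log2 changes come from a fit with TMM scaling from which the median change of expressed genes was subtracted, so that the 2 can differ in size and, for small differences, in sign. The subtracted median was 0.12 on the log2 scale for A-485, for the additional against the initial controls and for CTCF-AID against the initial controls, and under 0.1 in size elsewhere. The p-values and SEs printed beside the log2 changes belong to the change before this subtraction. A gene is said to rise or fall when its adjusted p was below 0.05, and to be called when it also changed by at least 2-fold. Sequencing depth was 4027449 to 21898781 counts per column. All 10 mESC markers that were examined (among them Pou5f1, Nanog and Esrrb) were at or above 1 CPM in every mESC control group, with summed levels of 3615 to 5425 CPM, against 83.8 to 90.5 CPM in the NPC controls. Of 10 NPC markers (Nes, Pax6 and Sox1 among them) 9 were at or above 1 CPM in the NPC controls, with Hes5 at 0.744 CPM, and their sum was 1134 to 1184 CPM against 115 to 171 CPM in mESC controls. Neuron markers summed to 265 and 266 CPM in the NPC controls and astrocyte markers to 7.47 and 7.73 CPM. Degrons act on protein, so the RNA of the targeted gene does not check the labels: Rad21 was at 229 to 230 CPM in the initial mESC controls and 238 to 250 CPM after IAA, and Ctcf at 247 to 283 CPM in the CTCF-AID controls and 260 to 313 CPM after IAA. In the CTCF-AID experiment the stranded replicate 2 libraries stood apart. The log counts of both stranded controls correlated at 0.973 and those of both stranded IAA libraries at 0.965, below the stranded replicate 2 pair itself at 0.984 and below 0.985 and 0.983 for the unstranded libraries. CTCF-AID results are therefore given with and without this pair.

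Growth factors such as FGFs and EGF bind receptor tyrosine kinases, which activate RAS, the RAF and MEK kinases and finally ERK. ERK phosphorylates transcription factors that switch on genes within minutes to hours, and a part of these genes encode inhibitors of the same pathway. Sprouty and Spred proteins act upstream, Spred proteins by bringing the RAS-inactivating protein neurofibromin to the membrane. Dusp5 and Dusp6 encode phosphatases that act on ERK, in the nucleus and the cytoplasm respectively, and Dusp4 encodes a nuclear phosphatase of ERK and related kinases. Etv4 and Etv5 carry the response on as transcription factors. In naive mESCs grown with a MEK inhibitor this output is held down, and neural progenitors depend on FGF and EGF for their growth.

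By GENCODE M21 on GRCm38, the counted bodies of the Sprouty genes lie at chr3:37639947-37644598 on the plus strand (Spry1), chr14:105891947-105896819 on the minus strand (Spry2) and chr18:38586247-38601415 on the minus strand (Spry4). Spred1 lies at chr2:117121374-117182279 and Spred2 at chr11:19924375-20024026, both on the plus strand. Dusp4 lies at chr8:34807297-34819894, Dusp5 at chr19:53529109-53542431 and Dusp6 at chr10:99263231-99267489, all on the plus strand. Etv4 lies at chr11:101769747-101785371 and Etv5 at chr16:22381309-22439719, both on the minus strand. Counts cover exons and introns of these bodies, from 4.26 kb for Dusp6 to 99.7 kb for Spred2. Annotated transcripts on the opposite strand overlap Spry1 (Gm42922, 710 bp), Dusp5 (AC137853.2, 547 bp) and Spry4 (Gm27369 and Gm27804, 71 and 119 bp). Whether counting used strand is not stated for genes, so reads of these partners cannot be told apart from those of the 3 genes.

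Control cells of the different lines differed widely in the level of a few of these genes, and Spry4, Dusp6 and Etv4 differed most. Spry4 stood at 3.53 and 3.61 CPM in the initial RAD21-AID mESC controls and between 42.1 and 54.0 CPM (median 49.3) in the 12 additional controls of the same line. The 2 sets of controls did not overlap, and the additional ones were 12.1-fold higher. Dusp6 was at 3.12 and 3.91 CPM in the initial controls and at 10.4 to 14.9 CPM (median 13.3) in the additional ones, 3.33-fold higher. Etv4 was at 14.8 and 15.4 CPM against 22.0 to 29.7 CPM (median 25.7), a 1.49-fold difference without overlap. The share of all genes without overlap between these controls was not counted. Spry4 and Dusp6 were the 2 of 10 genes that were at least 2-fold higher in the additional controls, against 2.46% of all genes fitted, and none was as much lower. Spred2 went the other way, from 392 and 432 CPM to a median of 281 CPM and a highest value of 304 CPM. Etv5, at 434 and 442 CPM against 468 to 489 CPM (median 475), was higher as CPM but had a log2 difference of -0.07 after scaling, so no direction is given. Spred1 differed by -0.23, at 130 and 133 CPM against 122 to 133 CPM (median 126). The experiments were made with different library kits (NEBNext Ultra and Ultra II) and of these 2 the labels name batches for the additional one alone, so kit, batch and culture cannot be told apart. Markers of mESCs moved between the same controls: Pou5f1 averaged 77.1 CPM in the initial libraries beside 177 CPM in the additional, and Nanog 301 beside 596 CPM. Of the mESC markers Esrrb (968 and 939 CPM) and Tfcp2l1 (1000 and 835 CPM) alone went the other way. The 10 mESC markers summed to 3615 to 3771 and 4440 to 4683 CPM, and the 6 primed epiblast markers to 195 to 196 and 114 to 139 CPM, with Lef1 at 107 and 27.3 CPM and Fgf5 at 0.205 and 0.176 CPM. Otx2 (3.54 and 12.6 CPM) and T (6.06 and 10.0 CPM) were higher in the additional libraries. Dnmt3b (78.5 and 79.0 CPM) and Pou3f1 (0.911 and 0.854 CPM) were close. Their part in the result was not tested.

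Controls of the CTCF-AID line held Spry4 at a few CPM, with a log2 difference of -0.27 ± 0.27 from the initial RAD21-AID controls (adjusted p = 0.622), and the YF-AA line had far more. Unstranded CTCF-AID controls held Spry4 at 3.39 and 3.72 CPM, and the YF-AA controls, made with the same kit, held it at 48.4 and 51.8 CPM. With edgeR's quasi-likelihood test and Benjamini-Hochberg adjustment, Spry4 was higher in YF-AA by 3.85 ± 0.16 on the log2 scale (SE, n = 2 and 2, adjusted p = 7.94e-11). Etv4 was at 61.8 and 62.5 CPM in YF-AA and at 11 and 11.2 CPM in CTCF-AID, higher by 2.52 ± 0.12 (adjusted p = 5.63e-10). Dusp6 was at 21.2 and 24.8 CPM against 8.98 and 12.2 CPM, higher by 1.13 ± 0.19 (adjusted p = 1.05e-04). These 3 of 10 genes passed both the adjusted p of 0.05 and a 2-fold difference, against 5.26% of all genes tested. Etv5, Spred1, Spry2 and Spry1 also passed the adjusted p, with log2 differences of 0.70, 0.43, 0.49 and 0.61, so that 7 of 10 were higher, against 24.5% of all genes. None of the 10 was lower. Spry1 did not pass the adjusted p with DESeq2 (0.0833).

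Between the CTCF-AID controls and the initial RAD21-AID controls, 5 of 10 genes were lower and 2 were higher by the adjusted p, close to the 31.7% and 32.5% of all genes tested. The largest were Spred2, at 161 and 201 CPM against 392 and 432 CPM (log2 difference -1.45 ± 0.11, adjusted p = 1.84e-09), and Dusp6, at 8.98 and 12.2 CPM against 3.12 and 3.91 CPM (1.33 ± 0.23, adjusted p = 2.1e-05). Spry2 was at 76.4 and 94.2 CPM against 32.9 and 39.4 CPM (0.98 ± 0.11, adjusted p = 7.25e-08). Dusp4, Dusp5, Etv4 and Etv5 were lower by the test, with log2 differences of -1.0, -0.84, -0.71 and -0.37, and Dusp4 and Dusp5 did not pass the adjusted p with DESeq2. In the ΔN/ΔC controls, Spry4 was at 1.42 and 2.16 CPM, the lowest level among the mESC control groups, and Dusp6 at 5.22 and 5.57 CPM. Against the stranded CTCF-AID controls, 2 of 10 genes were at least 2-fold higher by the test, with 5.59% of all genes so called. They were Spry1, at 14.3 and 15.8 CPM against 6.62 and 6.72 CPM (1.20 ± 0.21, adjusted p = 0.018), and Dusp5, at 11.1 and 12.4 CPM against 4.11 and 5.15 CPM (1.39 ± 0.26, adjusted p = 0.0194). The largest differences in size were lower ones that did not pass, Spry4 at -1.81 ± 0.49 (adjusted p = 0.0543) and Dusp6 at -1.42 ± 0.46 (adjusted p = 0.0867), and both passed as lower with DESeq2 (adjusted p = 0.0383 and 0.0365) and with no count filter (adjusted p = 0.0267 and 0.0444). 1 of the stranded controls is the library that stood apart, and with single libraries left out the number of genes called ranged from 0 to 5. Line, clone and preparation cannot be told apart in any of these comparisons.

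NPC controls transcribed 8 of the 10 genes at levels at least 2-fold above those of the RAD21-AID mESC controls, with Etv5 and Spred2 as the exceptions. Dusp6 was at 3.12 and 3.91 CPM in the initial mESC controls and at 642 and 713 CPM in NPCs, a log2 difference of 7.51 ± 0.12 (adjusted p = 4.76e-44). Spry4 was at 571 and 578 CPM in NPCs, 7.23 ± 0.11 higher on the log2 scale (adjusted p = 3.18e-44). Spry1 was at 321 and 326 CPM against 6.65 and 8.62 CPM (5.32 ± 0.10), Dusp4 at 70.6 and 77.3 CPM against 2.70 and 2.71 CPM (4.67 ± 0.13) and Spry2 at 774 and 787 CPM against 32.9 and 39.4 CPM (4.34 ± 0.09). Spred1 reached 796 and 805 CPM in NPCs, higher by 2.51 ± 0.07. Etv4 reached 72.2 and 80.7 CPM, higher by 2.24 ± 0.09, and Dusp5 27.6 and 28.0 CPM, higher by 1.95 ± 0.14. Thus 8 of 10 genes were higher by at least 2-fold, against 25.5% of all genes tested. Etv5 was lower, at 158 and 163 CPM against 434 and 442 CPM (-1.55 ± 0.07, adjusted p = 7.63e-26), 1 of 10 against 20.5% of all genes. Spred2, at 447 and 464 CPM in NPCs, did not pass (0.05 ± 0.07, adjusted p = 0.446).

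Set against the additional mESC controls, the same 8 genes were at least 2-fold higher in NPCs and Etv5 lower, with 26.8% and 18.7% of all genes fitted at these sizes. The difference of Spry4 shrank to 3.64 on the log2 scale and that of Dusp6 to 5.78, next to 5.10 for Spry1, 5.28 for Dusp4 and 4.01 for Spry2. The NPC and mESC libraries differ, by the methods, in medium, and in batch and, for the initial experiment, kit as well as in cell type, and these cannot be told apart. In these bulk libraries, fewer cells that transcribe a gene and less RNA per cell cannot be told apart either.

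Within a cell type, levels of different genes can be compared only per length of the counted body. In NPC controls Spry2 and Dusp6 led with 160 and 159 CPM per kb, and their ranges overlapped. They were followed by Spry1 (69.5 CPM per kb), Spry4 (37.9 CPM per kb) and Spred1 (13.1 CPM per kb). Dusp4, Etv4, Spred2, Etv5 and Dusp5 lay between 5.87 and 2.09 CPM per kb, with overlapping ranges for Etv4 and Spred2. In the initial mESC controls the order was another: Etv5 (7.50 CPM per kb) and Spry2 (7.42 CPM per kb) led with overlapping ranges, Spred2 followed at 4.14 CPM per kb, and Spry4 (0.235 CPM per kb) and Dusp4 (0.215 CPM per kb) came last. In the additional controls, Spry4 stood at 3.23 CPM per kb and overlapped Dusp6 (3.12 CPM per kb) and Spred2 (2.84 CPM per kb), behind Spry2 (10.6 CPM per kb) and Etv5 (8.15 CPM per kb).

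**Figure D1:**
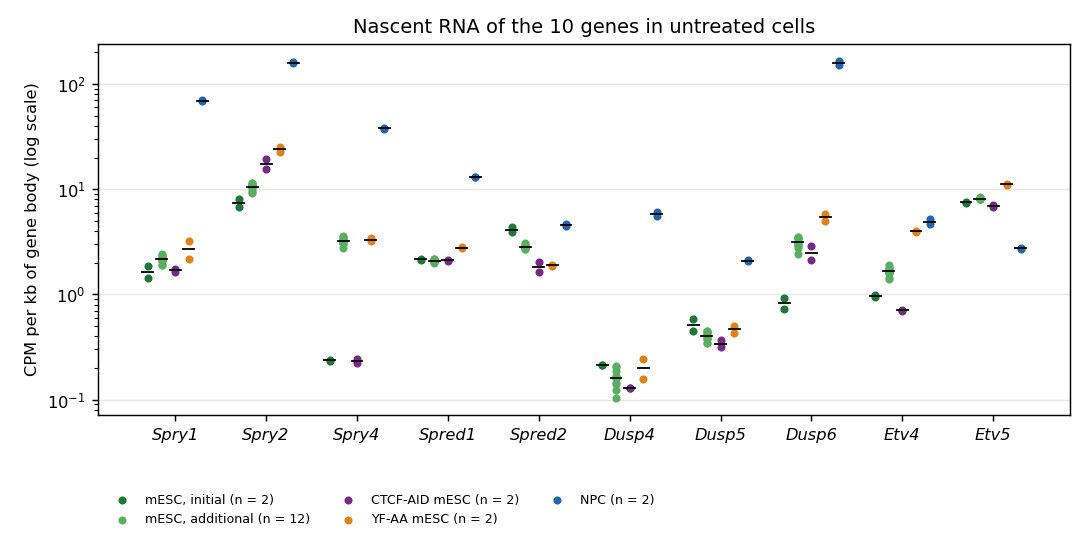
Levels in control libraries of 4 mESC experiments and of NPCs (vertical axis, CPM per kb of gene body on a log scale, 1 point per library, black bars for means) for each of the 10 genes. The NPC points lie above those of the mESCs for every gene but Etv5, and Spry4 splits the mESC controls into a group at about 0.235 CPM per kb and one at about 3.23 CPM per kb.

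RAD21 loss for 4 h lowered 3 of the 10 genes in the initial mESC experiment, each by less than 2-fold. Spred1 fell from 130 and 133 CPM in controls to 97.9 and 108 CPM (log2 change -0.39 ± 0.08, SE, adjusted p = 1.45e-05). Spry2 fell from 32.9 and 39.4 CPM to 26.3 and 29.6 CPM (-0.40 ± 0.11, adjusted p = 0.00413). Spry4 fell from 3.53 and 3.61 CPM to 1.57 and 2.13 CPM (-0.97 ± 0.32, adjusted p = 0.0331). Control and IAA values did not overlap for any of the 3 genes, and the share of all genes without overlap was not counted. Fractions of all genes tested that passed in this comparison were 5.23% for lower and 3.4% for higher, and none of the 10 was higher by the test. Dusp6 (-0.61 ± 0.31, adjusted p = 0.233), Dusp5 (-0.59 ± 0.23, adjusted p = 0.0816) and Etv4 (-0.33 ± 0.15, adjusted p = 0.179) did not pass, nor did Dusp4 (0.47), Spry1 (0.24), Spred2 (-0.11) and Etv5 (-0.12). The median over the 10 was -0.36, beside 0.01 over all genes tested. With DESeq2, Spred1 passed, Spry2 did not (adjusted p = 0.119) and Spry4 received no adjusted p. With each library left out in turn 1 or 2 of the 10 passed, Spred1 in 3 of 4 such fits, Spry2 in 2 and Spry4 in none. Summed mESC markers went from 3615 to 3771 CPM in controls to 3140 to 3168 CPM after IAA, with all 10 at or above 1 CPM. Oligodendrocyte markers went from 64.3 to 65.5 CPM to 44.3 to 48.6 CPM and neuron markers from 48.6 to 53.4 CPM to 56.1 to 59.1 CPM. The part of these markers in the result was not tested.

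In the 24 additional libraries the same treatment went with a much larger difference in Spry4. Its level was 42.1 to 54.0 CPM (median 49.3) in the 12 controls and 1.96 to 3.17 CPM (median 2.63) in the 12 IAA libraries, 19.0-fold lower (log2 difference -4.25). Same-numbered control and IAA libraries differed by -4.66 to -3.94 on the log2 scale, lower in 12 of 12. After IAA, Spry4 in the additional libraries lay close to the 1.57 and 2.13 CPM of the initial IAA libraries, whereas the controls of the 2 experiments differed. Dusp6 was at 10.4 to 14.9 CPM (median 13.3) in controls and 4.22 to 6.78 CPM (median 4.91) after IAA, a log2 difference of -1.44 and lower in 12 of 12 pairs. Etv4 was at 22.0 to 29.7 CPM (median 25.7) and 7.81 to 10.9 CPM (median 9.96), a log2 difference of -1.43 and lower in 12 of 12 pairs. These 3 genes were at least 2-fold lower, 3 of 10 beside 0.585% of all genes fitted, a share that the choice of the genes used.

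The other members were lower by less. Spred1 was at 122 to 133 CPM (median 126) in controls and 73.4 to 81.8 CPM (median 80.2) after IAA, a log2 difference of -0.70 without overlap. Spry2 was at 45.0 to 55.9 CPM (median 52.1) and 36.8 to 40.7 CPM (median 38.9), also without overlap, a log2 difference of -0.44. The share of all genes without overlap between these groups was not counted. Dusp5 was at 4.6 to 5.98 CPM (median 5.43) and 2.49 to 4.74 CPM (median 3.17), with overlap at the edge and a log2 difference of -0.75. Dusp4 (-0.33), Spry1 (-0.20), Spred2 (-0.15) and Etv5 (-0.04) overlapped between the groups. All 10 log2 differences were below 0, with a median of -0.57 beside 0.03 over all genes fitted. Marker sums differed between the same libraries without overlap: mESC markers (10 of 10 at or above 1 CPM) were at 4440 to 4683 CPM in controls and 3896 to 4102 CPM after IAA, 3 oligodendrocyte markers at 52.8 to 63.0 and 42.6 to 48.5 CPM, and 4 neuron markers at 64.3 to 72.3 and 73.9 to 85.2 CPM, with Dcx at 0.0162 CPM in controls. Their part in the result was not tested. In the batch that holds 11 of the 12 pairs the differences of Spry4, Dusp6 and Etv4 were -4.25, -1.42 and -1.42, and in the other batch, with 1 pair, -4.29, -1.82 and -1.54.

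**Figure D2:**
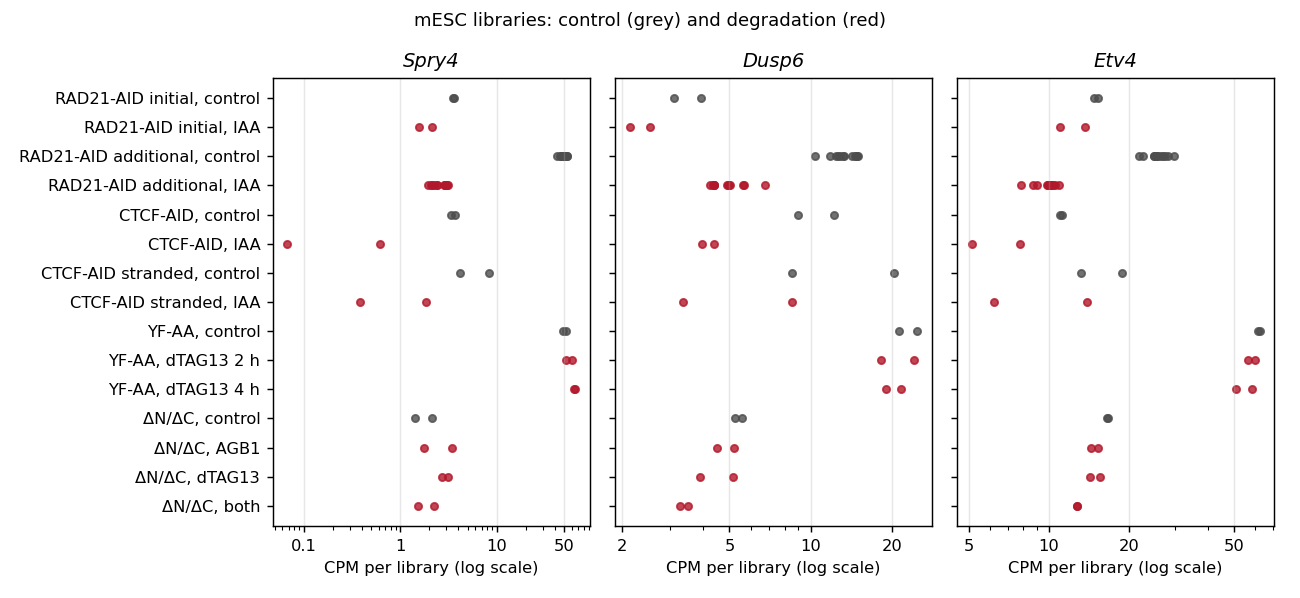
Spry4, Dusp6 and Etv4 in the 50 mESC libraries (horizontal axis, CPM on a log scale, 1 point per library), with controls in grey and degradation in red. The additional RAD21-AID controls and all YF-AA libraries hold Spry4 at 42.1 CPM or more, and the libraries of every other group at 8.36 CPM or less.

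In NPCs, where the group was transcribed at high levels, RAD21 loss did not lower the genes together but split them. Spry1 fell the most. Its level was 387 and 392 CPM in controls and 347 and 353 CPM after 1 h of IAA in the columns that stop at the first 90 kb of a gene (log2 change -0.18 ± 0.04, adjusted p = 0.00901). In the columns without this limit it went from 321 and 326 CPM to 157 and 187 CPM at 2 h (-0.99 ± 0.08, adjusted p = 3.04e-05) and to 140 and 142 CPM at 4 h (-1.31 ± 0.04, adjusted p = 2.12e-22). It was the only member that passed 2-fold at 4 h, 1 of 10 against 2.75% of all genes tested. Spry2 went from 932 and 948 CPM to 802 and 812 CPM at 1 h (-0.24 ± 0.04, adjusted p = 4.76e-04), and from 774 and 787 CPM to 543 and 673 CPM at 2 h (-0.44 ± 0.10, adjusted p = 0.0192) and 572 and 620 CPM at 4 h (-0.50 ± 0.04, adjusted p = 2.46e-11). The 2 h and 4 h changes share the same controls, as do the 1 h changes and those of A-485.

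Spry4, the gene with the largest differences in mESCs, changed little in NPCs. It stood at 687 and 697 CPM in controls and 708 and 725 CPM after 1 h (0.03 ± 0.04, adjusted p = 0.368). It fell from 571 and 578 CPM to 430 and 491 CPM at 2 h (-0.40 ± 0.08, adjusted p = 0.0122) and to 521 and 548 CPM at 4 h (-0.21 ± 0.04, adjusted p = 1.75e-04). Spred1 fell at 1 h, from 958 and 970 CPM to 852 and 864 CPM (-0.19 ± 0.04, adjusted p = 0.00581), and at 4 h, from 796 and 805 CPM to 708 and 744 CPM (-0.25 ± 0.04, adjusted p = 2.02e-05), and did not pass at 2 h (637 and 776 CPM, -0.26 ± 0.09, adjusted p = 0.163). Dusp6, at 642 and 713 CPM in controls and 674 and 769 CPM at 4 h, and Etv5, at 158 and 163 CPM and 170 and 173 CPM, passed at none of the 3 times.

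The phosphatase genes Dusp4 and Dusp5 rose. Dusp4 went from 85.1 and 93.1 CPM to 171 and 172 CPM at 1 h (0.92 ± 0.05, adjusted p = 1.14e-11), and from 70.6 and 77.3 CPM to 103 and 110 CPM at 2 h (0.45 ± 0.07, adjusted p = 8.6e-04) and 100 and 104 CPM at 4 h (0.35 ± 0.05, adjusted p = 1.59e-07). Dusp5 went from 33.3 and 33.7 CPM to 52.6 and 53.9 CPM at 1 h (0.65 ± 0.07, adjusted p = 3.09e-07), was at 26.3 and 32.0 CPM beside controls of 27.6 and 28.0 CPM at 2 h, and reached 36.8 and 39.0 CPM at 4 h (0.33 ± 0.07, adjusted p = 8.98e-05). Etv4 rose from 87.1 and 97.2 CPM to 101 and 108 CPM at 1 h (0.16 ± 0.06, adjusted p = 0.03, lost with DESeq2 at 0.183) and from 72.2 and 80.7 CPM to 95.5 and 98.4 CPM at 4 h (0.23 ± 0.05, adjusted p = 1.08e-04). Spred2 rose at 4 h, from 447 and 464 CPM to 530 and 539 CPM (0.12 ± 0.04, adjusted p = 0.00128); its body exceeds 90 kb, so its 1 h columns leave out the far end.

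By the adjusted p, 3 of 10 genes were lower and 3 higher at 1 h (7.4% and 8.34% of all genes tested), and at 2 h 3 lower and 1 higher (9.21% and 5.35%). At 4 h, 4 were lower and 4 higher (21.1% and 18.4%). Between the 4 h and the 2 h libraries, compared directly, none of the 10 passed, against 2.85% of all genes. An unadjusted p under 0.05 was found for 3 of them, beside 2490 of all 15942 genes tested. The nearest was Spry1, with a log2 difference of -0.32 ± 0.08 (adjusted p = 0.0534), which passed with no filter on low counts and with the replicate number as a block (adjusted p = 4.56e-04 and 0.00608). Replicate 1 and 2 of the 2 h IAA libraries lay apart for several members (543 and 673 CPM for Spry2, 637 and 776 CPM for Spred1), and without single libraries 2 to 7 genes passed at 2 h, against 3 to 6 at 1 h and 8 at 4 h. Summed mESC markers were 88.8 to 94.6 CPM at 4 h beside 83.8 to 90.5 CPM in controls, and summed neuron markers 225 to 238 CPM beside 265 and 266 CPM. Summed NPC markers were 1243 to 1295 CPM beside 1134 to 1184 CPM, and summed oligodendrocyte markers 27.4 to 27.5 CPM beside 21.8 to 22.2 CPM. Their part in the result was not tested.

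**Figure D3:**
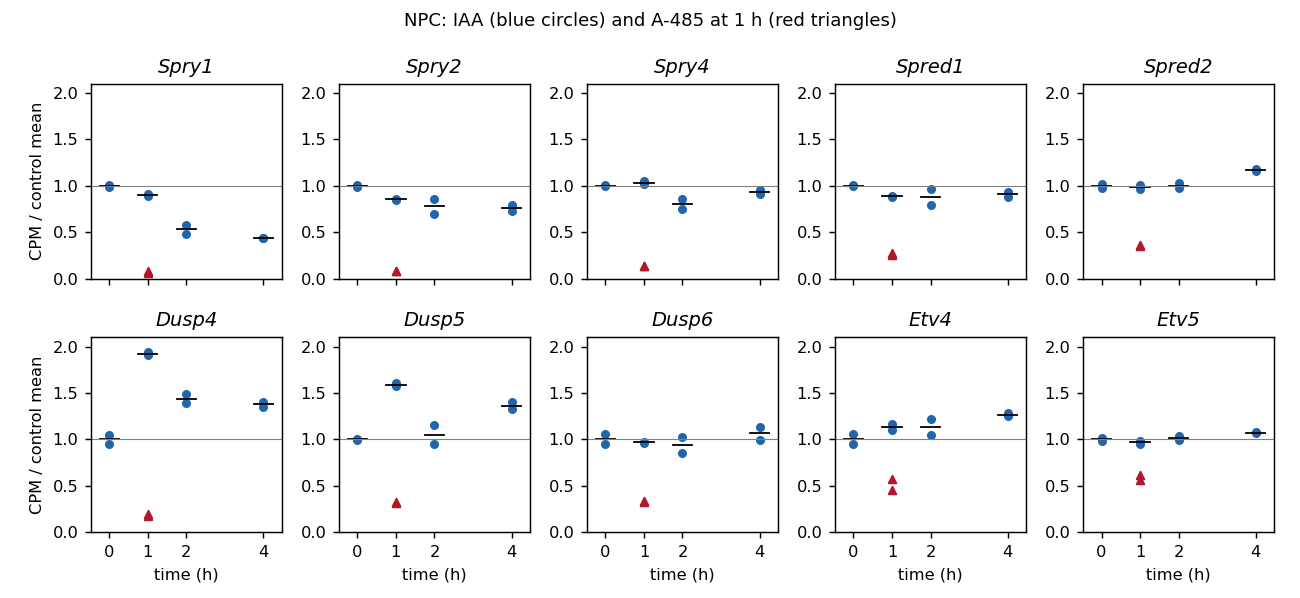
Level of each gene in NPC libraries over the mean of its controls (vertical axis, ratio of CPM) against hours of treatment, with IAA as blue circles, A-485 as red triangles and black bars for IAA means. Values at 1 h are set against the controls counted over the first 90 kb. Spry1 declines over the time points, Dusp4 is highest at 1 h, and A-485 lies below the controls in all 10 panels.

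Whether the 4 h effect of RAD21 loss differed between NPCs and the initial mESCs was tested directly, as the interaction of cell type and IAA over the 8 libraries. Spry1 differed the most: it was lower by 1.52 ± 0.17 on the log2 scale in NPCs than in mESCs (interaction -1.52, adjusted p = 8.65e-11), where it stood at 6.65 and 8.62 CPM in controls and 8.72 and 9.55 CPM after IAA. Dusp5 differed in the other direction (0.96 ± 0.21, adjusted p = 5.97e-04), as did Etv4 (0.59 ± 0.15, adjusted p = 0.00199), Spry4 (0.79 ± 0.28, adjusted p = 0.0468) and Spred2 (0.26 ± 0.08, adjusted p = 0.0259). Thus 1 of 10 passed as lower and 4 as higher, against 9.88% and 6.71% of all genes tested. With the replicate number as a block Spry4 and Spred2 no longer passed (adjusted p = 0.0888 and 0.131), and with each library left out in turn Spry1 and Dusp5 passed in 8 of 8 fits, Etv4 in 7, Spred2 in 1 and Spry4 in 0. Spry2, Spred1, Dusp4, Dusp6 and Etv5 did not pass, with differences of -0.07, 0.16, -0.09, 0.62 and 0.13.

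A-485 lowered all 10 genes in NPCs within 1 h, each by more than 2-fold after scaling and subtraction of the median. For Etv4 and Etv5 the difference in CPM itself was under 2-fold. The Sprouty genes fell the most. Spry1 went from 387 and 392 CPM to 23.4 and 31.4 CPM, 17.9-fold lower (log2 change -4.16 ± 0.10, adjusted p = 8.26e-15). Spry2 went from 932 and 948 CPM to 77.5 and 77.8 CPM, 15.3-fold lower (-3.93 ± 0.07), and Spry4 from 687 and 697 CPM to 92.5 and 94.4 CPM, 9.35-fold lower (-3.22 ± 0.07). Dusp4 went from 85.1 and 93.1 CPM to 15.5 and 17.8 CPM (-2.75 ± 0.09), and Spred1 from 958 and 970 CPM to 242 and 268 CPM (-2.25 ± 0.07). Dusp5 (-1.98 ± 0.11), Dusp6 (-1.95 ± 0.07) and Spred2 (-1.82 ± 0.06) fell by 3.95-, 3.86- and 3.52-fold. The ETS factor genes fell the least, Etv4 from 87.1 and 97.2 CPM to 42.2 and 52.5 CPM (-1.29 ± 0.09) and Etv5 from 190 and 196 CPM to 109 and 118 CPM (-1.10 ± 0.07). The 10 of 10 called lower compare with 20.2% of all genes tested, and the median of -2.12 with -0.11. Treated and control values did not overlap for any member, and the share of all genes without overlap was not counted. All 10 stayed called with any single library left out, with RLE normalization, with no count filter, with DESeq2 and with the replicate block. With no median subtracted 9 were called, and Etv5 was at -0.98. Dusp4 and Dusp5, which rose after 1 h of RAD21 loss beside the same control libraries, fell here.

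The starts of 7 of the 10 genes are covered by RefSeq promoter windows on GRCm38.p6, from 250 bases before to 50 bases after the start, in 8 windows with 2 for Etv5. Spry4, Dusp4 and Etv4 had no window in the table. The 8 windows had a median GC content of 63.5% and 28 CpG, beside 52.7% and 7 CpG over all 32851 windows. The 6 letters CCGGAA, a core of sites for ETS factors, were searched on both strands and were found in 1 of 8, that of Spry2, beside 14.9% of all windows. TGANTCA, a site of AP-1 factors, was found in 0 of 8, beside 7.81% of all. These are matches of letters and say nothing of binding.

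The 250 bases before the start of Spry1 and Spry2, the members with the largest A-485 changes, and of Dusp6, the member with the largest NPC to mESC difference, are shown 5′ to 3′ on the strand of the gene, with CpG in capitals (23, 23 and 16 of them). They lie at chr3:37639697-37639946 (plus strand), chr14:105896820-105897069 (minus strand) and chr10:99262981-99263230 (plus strand). The last line gives the Spry2 stretch at chr14:105896772-105896797 with CCGGAA in capitals, whose first base is 33 bases after the start.
Spry1: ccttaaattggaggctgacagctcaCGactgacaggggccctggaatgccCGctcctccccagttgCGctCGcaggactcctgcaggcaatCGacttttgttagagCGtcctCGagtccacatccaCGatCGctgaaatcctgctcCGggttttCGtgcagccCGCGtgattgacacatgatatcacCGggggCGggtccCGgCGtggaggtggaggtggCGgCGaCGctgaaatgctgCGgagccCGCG
Spry2: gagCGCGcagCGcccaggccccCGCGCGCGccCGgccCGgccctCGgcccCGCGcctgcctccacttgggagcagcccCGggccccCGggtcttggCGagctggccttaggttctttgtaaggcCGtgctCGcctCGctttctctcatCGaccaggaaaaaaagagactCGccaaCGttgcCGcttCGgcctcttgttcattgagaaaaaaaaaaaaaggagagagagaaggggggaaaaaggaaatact
Dusp6: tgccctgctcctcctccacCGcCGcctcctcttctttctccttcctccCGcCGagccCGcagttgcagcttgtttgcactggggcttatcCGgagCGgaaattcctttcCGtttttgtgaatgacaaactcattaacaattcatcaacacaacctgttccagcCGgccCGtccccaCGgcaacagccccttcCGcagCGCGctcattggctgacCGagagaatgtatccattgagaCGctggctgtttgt
Spry2 stretch: ggtcatctatcCCGGAAtccgggagg

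CTCF loss for 6 h lowered Spry4 and Spred1 in mESCs in the main fit, which did not pair the replicates. More of the 10 genes passed with pairing, as given below. In the 4 CTCF-AID controls Spry4 stood at 3.39, 3.72, 4.2 and 8.36 CPM, and after IAA at 0.068, 0.387, 0.616 and 1.83 CPM, without overlap (log2 change -2.79 ± 0.57, SE, n = 4 and 4, adjusted p = 0.0356). The IAA values rest on few reads, at depths of 12977609 to 14711731 counts (unstranded) and 7745427 to 18008719 counts (stranded). Same-numbered libraries differed by -5.06 and -2.51 (unstranded) and by -3.24 and -2.25 (stranded), so the size of the fall is poorly fixed. Spred1 went from 124, 126, 128 and 129 CPM to 99.2, 99.7, 99.7 and 106 CPM, also without overlap (-0.34 ± 0.06, adjusted p = 0.0163). How many of all genes were without overlap here was not counted. Both were lower, 2 of 10 against 2.01% of all genes tested, and Spry4 passed 2-fold, 1 of 10 against 0.89%. Dusp6 was at 8.51, 8.98, 12.2 and 20.3 CPM in controls and 3.36, 3.94, 4.39 and 8.50 CPM after IAA, and did not pass (-1.32 ± 0.36, adjusted p = 0.0978). Etv4, at 11, 11.2, 13.2 and 18.9 CPM against 5.10, 6.20, 7.78 and 13.9 CPM, did not pass either (-0.73 ± 0.28, adjusted p = 0.213), nor did Dusp5 (0.61 ± 0.22, adjusted p = 0.221), Etv5 (-0.31), Dusp4 (0.46), Spry2 (0.25), Spry1 (-0.12) and Spred2 (-0.04).

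Replicate numbers paired these samples: the deviations of same-numbered control and IAA libraries from their group means correlated at 0.435 in the unstranded and 0.763 in the stranded libraries. With the replicate number as a block, 5 genes were lower and 1 higher by the adjusted p, with 15.3% and 13.9% of all genes. Besides Spry4 (-2.77, adjusted p = 5.19e-05) and Spred1 (-0.34, adjusted p = 7.91e-05) these were Dusp6 (-1.33, adjusted p = 9.89e-06), Etv4 (-0.75, adjusted p = 0.00121), Etv5 (-0.30, adjusted p = 3.04e-04) and, higher, Dusp5 (0.58, adjusted p = 0.0169). Without the stranded replicate 2 pair, which was left out after the data were seen and with no block, the same 6 genes passed in the same directions, against 8.52% lower and 10.9% higher of all genes. Spry4 was then at -3.40 (adjusted p = 7.12e-04), Dusp6 at -1.34 (adjusted p = 9.12e-04), Etv4 at -0.87 (adjusted p = 0.00884), Etv5 at -0.24 (adjusted p = 0.00782), Spred1 at -0.32 (adjusted p = 0.00287) and Dusp5 at 0.69 (adjusted p = 0.0345). The stranded libraries alone gave no gene that passed, with Spry4 at -2.45 and Dusp6 at -1.31. Spry2, whose stranded controls were at 37.8 and 105 CPM and whose stranded IAA libraries were at 22.8 and 138 CPM, passed in neither of these fits, and passed as higher with both combined (0.36, adjusted p = 2.55e-07). With both combined, 2846 of all 15719 genes were lower and 3293 higher by the adjusted p.

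Degradation of CTCF in the YF-AA line, where Spry4 started high, did not lower it. Spry4 stood at 48.4 and 51.8 CPM in controls, at 52.6 and 59.6 CPM after 2 h of dTAG13 (0.13 ± 0.11, adjusted p = 0.77) and at 62.7 and 65.4 CPM after 4 h, where it passed as higher (0.33 ± 0.10, adjusted p = 0.0409). It did not pass with DESeq2 (adjusted p = 0.386), with no filter on low counts (adjusted p = 0.0549) and with any 1 of the 4 libraries left out. Etv4 was at 61.8 and 62.5 CPM in controls, 56.6 and 59.9 CPM at 2 h and 51.0 and 58.5 CPM at 4 h (-0.20 ± 0.10, adjusted p = 0.283). Dusp6 was at 21.2 and 24.8 CPM in controls and 19.0 and 21.6 CPM at 4 h (-0.16 ± 0.16, adjusted p = 0.699). In all, 0 of 10 genes passed at 2 h, against 3.94% of all genes, and 1 of 10 at 4 h, against 4.99%. None of the 10 had an unadjusted p under 0.05 at 2 h, beside 1779 of all 14009 genes tested. Both times share their controls. The difference between the effects in the YF-AA and the CTCF-AID line was not tested, and their treatment times differ.

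In the ΔN/ΔC line, none of the members that could be tested passed after AGB1 (0 of 9, against 2.14% of all genes), after dTAG13 (0 of 9, against 0.0808%) or after both (0 of 8, against 6.59%). Of them 0, 1 and 4 had an unadjusted p under 0.05, beside 1562 of 13619, 530 of 13618 and 2595 of 13753 of all genes. All 3 treatments share their controls. Dusp4, at 0.946 to 2.49 CPM in these libraries, was below the count filter in each, and Spry4 did with both compounds. The nearest with both compounds were Etv5, from 549 and 558 CPM to 487 and 507 CPM (-0.16 ± 0.05, adjusted p = 0.066), Spred2, from 214 and 218 CPM to 194 and 196 CPM (-0.15 ± 0.05, adjusted p = 0.101), Etv4, from 16.6 and 16.7 CPM to 12.7 CPM in each library (-0.39 ± 0.14, adjusted p = 0.102), and Dusp6, from 5.22 and 5.57 CPM to 3.27 and 3.50 CPM (-0.68 ± 0.26, adjusted p = 0.119). Treated values lay below both controls for all 4 genes, which are the nearest to passing, and the share of all genes so separated was not counted. Etv5 passed with no filter on low counts (adjusted p = 0.0436) and with the replicate number as a block (adjusted p = 0.0248). Spry4 was at 1.42 and 2.16 CPM in controls, 1.77 and 3.48 CPM after AGB1, 2.72 and 3.15 CPM after dTAG13 and 1.53 and 2.23 CPM after both.

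**Figure D4:**
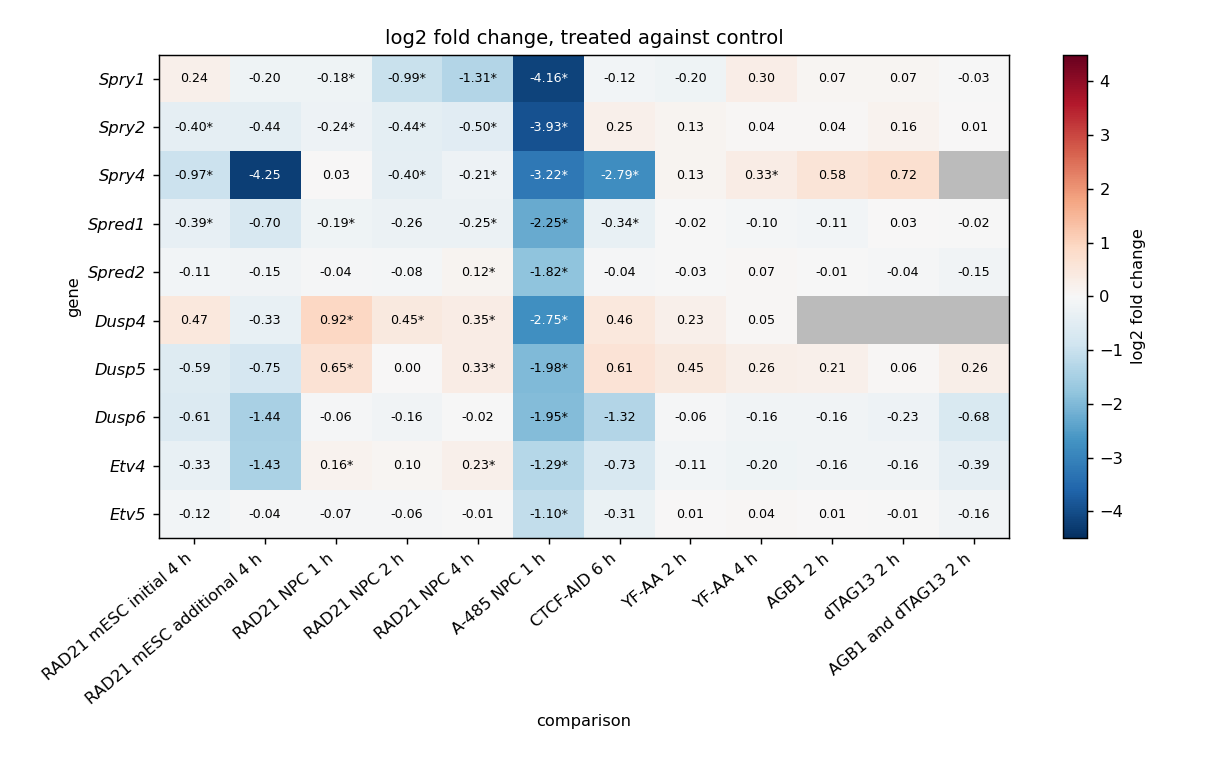
Log2 fold change of each gene (rows of the map) in 12 comparisons (columns), in red for higher and blue for lower, with a star for an adjusted p below 0.05 and grey where the gene was below the count filter; the additional RAD21-AID comparison was not tested and has no stars. The A-485 column is negative for all 10 genes, and Spry4 ranges from -4.25 to 0.72.

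Other genes of the pathway were followed as 4 lists of 85 genes in all, of which 83 had a row: ligands and receptors (26), adaptors and RAS regulators (16), RAF, MEK and ERK kinases (13), and other feedback and response genes (30). Under A-485, 40 of 78 tested genes of these lists were called lower, against 20.2% of all genes, and none higher. The 40 comprised 14 of 21 ligands and receptors, 21 of 28 response genes, 4 of 16 adaptors and RAS regulators and 1 of 13 kinases. The median change was -1.04 on the log2 scale, beside -0.11 over all genes. The largest were Areg, a ligand of the EGF receptor (-4.52 ± 0.36, adjusted p = 2.28e-08), Egfr, the receptor itself (-4.31 ± 0.09, adjusted p = 3.36e-15), and Epha4, an Eph receptor (-4.25 ± 0.09, adjusted p = 2.06e-15).

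After RAD21 loss in NPCs, 14 of 79 listed genes were lower and 6 higher by the adjusted p at 1 h, with 7.4% and 8.34% of all genes. The counts were 19 lower and 3 higher of 77 at 2 h (9.21% and 5.35% of all genes), and 29 lower and 15 higher of 78 at 4 h (21.1% and 18.4%). At 4 h the largest called were Egfr (-2.40 ± 0.04, adjusted p = 2.66e-28), the receptor gene Kit (-1.78 ± 0.14, adjusted p = 9.86e-12) and Errfi1, which encodes an inhibitor of the EGF receptor (-1.70 ± 0.04, adjusted p = 1.08e-24). The same 3 genes led at 2 h, with -1.40, -1.12 and -1.53. In the initial mESCs 8 of 71 were lower and 2 higher, beside 5.23% and 3.4% of all genes, with Myc at 1.47 ± 0.24 (adjusted p = 1.56e-07), the VEGF receptor gene Kdr at -1.33 ± 0.43 (adjusted p = 0.0263) and the PDGF receptor gene Pdgfra at 1.09 ± 0.19 (adjusted p = 1.33e-06). In the additional libraries Kdr was at -2.50 and Pdgfra at 1.11, described with no test. After CTCF loss 1 of 73 was lower and 2 higher, beside 2.01% and 1.57% of all genes, with Dusp9, another phosphatase gene of the family, at 1.03 ± 0.19 (adjusted p = 0.0285). In YF-AA, 3 of 71 were lower and 1 higher at 2 h, where 3.94% of all genes passed in either direction, with Fos at 1.42 ± 0.45 (adjusted p = 0.0454) and Pdgfra at -1.06 ± 0.25 (adjusted p = 0.00101), and 3 were lower and 1 higher at 4 h, where 4.99% of all genes passed. In ΔN/ΔC cells 1 of 67 was lower after AGB1 (2.14% of all genes in either direction), 0 of 66 passed after dTAG13 (0.0808%), and 9 of 66 were lower and 1 higher after both (6.59%).

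Between NPC and initial mESC controls, 16 of 80 listed genes were called lower and 30 higher, beside 20.5% and 25.5% of all genes, and among the response genes 3 were called lower and 17 higher of 28. The largest among genes with counts in both was the immediate early gene Egr1, at 0.451 CPM in the mESC and 531 CPM in the NPC controls (10.23 ± 0.18, adjusted p = 1.28e-42). Its relatives Egr2 and Egr3 had no count in either mESC control and stood at 4.99 and 14.5 CPM in NPCs. Between the additional and the initial mESC controls, where no test was made, Myc (1.82), Kdr (1.81) and Fgf17 (1.78) were the largest of 6 lower and 7 higher past 2-fold of 73 genes, beside 7.95% and 2.46% of all genes. Between YF-AA and CTCF-AID controls, 11 of 73 were lower and 26 higher by the adjusted p, beside 23.2% and 24.5% of all genes, led by Rasgrp1, a RAS activator (-3.22 ± 0.19), Phlda1 (2.74 ± 0.37) and the phosphatase gene Dusp10 (-2.38 ± 0.24). Among the response genes 4 were lower and 11 higher of 24.

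Over the 50 mESC libraries, Spry4 ranged from 0.068 to 65.4 CPM and Etv5 from 333 to 672 CPM. Among 15250 transcripts with a mean count above 20, log2 CPM correlated best with that of Spry4 for Pdk1 (r = 0.925), a pyruvate dehydrogenase kinase gene, Enox1 (r = 0.919) and Cdc42ep4 (r = 0.911). Enox1 was at 8.33 CPM in the initial controls, at 112 to 138 CPM in the additional controls, at 19.7 to 26.4 CPM in the additional IAA libraries and at 149 to 206 CPM in YF-AA. Among the members, Etv4 came closest (r = 0.884, rank 8), then Dusp6 (r = 0.848, rank 18) and Spred1 (r = 0.641, rank 248), whereas Spry2 (r = 0.115), Spred2 (r = 0.0698) and Dusp5 (r = -0.029) did not follow it. These coefficients describe 50 libraries that share lines, kits and batches, 24 of them from the additional experiment. The members were chosen with the large differences of some of them in those 24 libraries known. The ranks of the members therefore rest in part on values used in that choice, and are given as descriptions with no test.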

How the data were processed

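EU-seq was analysed in 60 libraries. According to the study's methods and the labels, the authors trimmed reads with cutadapt, aligned them to mm10 with bwa, removed reads of low mapping quality with samtools 1.4 and rRNA and tRNA reads with bedtools, and counted reads with HTSeq over the gene body of 1 transcript for each gene. The 62 deposited columns hold raw counts, not normalized, and the NPC columns for 1 h treatments, with a second copy of their controls, stop at the first 90 kb of a gene. Transcripts were named through GENCODE M21, which matched 27296 of 27665 with the version and 159 without it.

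Counts were tested with edgeR 4.0.16 in R 4.3.3 (quasi-likelihood F test, TMM, mean count above 20 in a group, Benjamini-Hochberg adjustment over all transcripts), and stranded against other libraries entered the CTCF-AID fit as a covariate. The median log2 change of genes above 15 TPM was then subtracted from the effect, and the p-values and SEs refer to the change before it. Of 20 comparisons 17 were tested, and 3 with the additional libraries were described. The genes named are the 10 members in every comparison and, of the 4 pathway lists, up to 3 of the largest called. Genes most like Spry4 were ranked by Pearson correlation of log2 CPM with a pseudocount of 0.5. Members, lists and tests were chosen with earlier results of these data known. Alternatives were RLE normalization, no count filter, no median subtraction, DESeq2 1.42.0, leaving out each library, library types and batches alone and the replicate number as a block. The test was checked on simulated data: of 100 transcripts altered 2-fold among 15006, 100% were recovered in the initial RAD21-AID design, and of 100 among 15397, 56% in the CTCF-AID design. False ones made up 4.76% and 1.33% of those that passed. These shares are not split by count level. They do not show that a 2-fold change would be found in members of few reads, such as Spry4 in mESCs. Median depth was 14088549 counts.

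Replicate numbers were taken to pair the samples in the CTCF-AID experiment alone, where the deviations of both pairs correlated at 0.435 and 0.763 within the library types. Triptolide is described in the treatment text of 18 libraries whose titles do not name it, and the titles were followed.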

Additional observations from a re-analysis of the deposited data

Results flagged for a closer look

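The effect of RAD21 loss at 4 h differed between NPCs and the initial mESCs, by the interaction test of edgeR, for 5 of the 10 genes. The log2 effect in NPCs minus that in mESCs was -1.52 for Spry1, 0.96 for Dusp5, 0.79 for Spry4, 0.59 for Etv4 and 0.26 for Spred2. Spry4 passed in 0 and Spred2 in 1 of 8 fits with a library left out, and neither passed with the replicate block (adjusted p = 0.0888 and 0.131). The cell types also differ in medium, kit and batch.

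Among the 4 CTCF-AID controls, Spry4 stood at 8.36 CPM in the stranded replicate 2 library, far from the other 3. Among the 4 CTCF-AID IAA libraries, Spred1 stood at 106 CPM in the unstranded replicate 1 library. Both groups pool the stranded and unstranded libraries, and a gap of this size is found by chance in about 1 in 20 groups.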

How the results depend on the processing

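Apart from leaving out libraries, 965 values of single genes were recomputed, of which 892 kept direction and side of the threshold (or, untested, moved by less than the replicate spread), 11 no longer and 27 newly passed the adjusted p, 35 untested ones moved and 0 reversed. The 965 include the fits with no median subtracted. In these the adjusted p was the same by construction, so the share kept is in part fixed in advance. With each library left out, 651 of 740 were kept, 63 no longer and 24 newly passed it, and 2 reversed, both between the ΔN/ΔC and the stranded CTCF-AID controls without stranded control replicate 2 (Spry2 at -0.32 and Spred2 at 0.20, with ranges over the libraries left out of -0.32 to 1.07 and -0.70 to 0.20).

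Counts of the 10 genes past the adjusted p moved as follows. CTCF-AID gave 2 by edgeR, 6 with the replicate block, 6 without the stranded replicate 2 pair, 7 with both, 0 in the stranded libraries alone and 0 to 2 with single libraries left out. The number also past 2-fold was 1, and 2 with DESeq2, with the block, in the unstranded libraries alone, without the pair and with both, 0 in the stranded ones and 0 to 2 with single libraries left out. Of all genes, 2846 of 15719 passed the adjusted p as lower and 3293 as higher with both, beside 314 and 245 of 15611 in the main fit. For RAD21 loss, the initial mESCs gave 3 genes, 1 with DESeq2 and 1 to 2 with a library left out, NPCs at 1 h gave 3 to 6 and at 2 h 2 to 7 (0 to 1 past 2-fold). For YF-AA at 4 h the 1 gene fell to 0 with no count filter, with DESeq2 and with any library left out (0 to 0). After both compounds in ΔN/ΔC, 1 passed with no filter and 1 with the block. Between 4 h and 2 h in NPCs 2 passed with no filter and 2 with the block, and 0 to 6 with a library left out. For the interaction 3 passed with the block and 2 to 4 with a library left out (1 to 2 past 2-fold). Between ΔN/ΔC and stranded CTCF-AID controls 4 passed with no filter and 4 with DESeq2, at both thresholds, and 0 to 7 (0 to 5 past 2-fold) with a library left out. Leaving out libraries gave 5 to 5 (2 to 3 past 2-fold) for CTCF-AID against initial controls, 6 to 8 (2 to 3 past 2-fold) for YF-AA against CTCF-AID controls and 9 to 10 for NPC against initial controls, and no change for A-485 (10 to 10, but 9 past 2-fold with no median subtracted) or NPCs at 4 h (8 to 8, 1 to 1 past 2-fold). The causes were not tested. Outside CTCF-AID the replicate block kept the side of the adjusted p for 111 of 116 values (2 no longer and 3 newly passed). Replicate numbers of the additional libraries shared only a number: 1 of 12 pairs correlated over 0.1 and 2 of 12 IAA libraries correlated best with their own. At 2 h in NPCs the correlation was 0.121, a single value because 2 replicates give the same one for both pairs. These libraries were likewise not treated as paired. Genes of few counts, such as Dusp4 and Spry4 in ΔN/ΔC cells and Spry4 in CTCF-AID cells after IAA, are limited by depth.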
